A study of Mus musculus with 4 samples.

Results

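Hepatocytes, the parenchymal cells of the liver, were a small remainder in 4 single-cell RNA sequencing libraries of digested mouse liver. A cell was taken as a hepatocyte when the transcripts of Alb, Apoa1, Ttr and Serpina1c together made up at least 2% of its unique molecular identifiers (UMIs, each standing for 1 captured transcript), when it held no UMI of the leukocyte gene Ptprc and of the epithelial gene Epcam, and when the endothelial genes Ptprb and Stab2 together gave at most 2 UMIs. These 8 genes chose the cells, so their levels are given as descriptions without a test. The cells were thus selected on measured values. Of 31290 cells that passed the quality limits (500 or more genes detected, mitochondrial UMIs not above 20%), 93 met the rule: 28 in NCD, 15 in HFD replicate 1, 33 in HFD replicate 2 and 17 in JQF.

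The libraries came from male C57BL/6J mice. NCD mice ate a normal chow diet and received distilled water by gavage, and HFD mice ate a high-fat diet and received distilled water. JQF mice ate the same high-fat diet and were then gavaged with Jiangtang Qingre Formula, a multi-herb preparation made mostly of mixed granules. NCD and JQF had 1 library each and HFD had 2, and the study's methods count 1 liver sample for each library. All livers were perfused, digested with enzymes, filtered, treated to lyse red blood cells and processed to remove dead cells, so the hepatocytes described here are those that came through this preparation. The labels that GEO holds for the libraries name an immune cell and a stem cell and were not used beyond the group. The 93 cells were chosen by hepatocyte genes, so they cannot test these labels.

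As background, hepatocytes secrete most plasma proteins, make bile acids from cholesterol, dispose of ammonia through the urea cycle, release glucose, package fat into lipoproteins and metabolize drugs. Their work is divided along the liver lobule: periportal cells, next to the incoming blood, carry more urea cycle, gluconeogenesis and Cyp2f2 transcripts, and pericentral cells, next to the central vein, carry more Cyp2e1 and glutamine synthetase. In male mice, pulsatile growth hormone keeps a set of male-biased genes on, among them many major urinary proteins (Mup genes). Feeding a high-fat diet is known to load hepatocytes with lipid droplets.

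The 93 cells were not alike in quality. Of them, 30 held at least 5% mitochondrial UMIs, with a median of 35708 UMIs (lowest 1202, highest 80287), and these carried 83.2% of all hepatocyte UMIs. Another 56 held under 1% mitochondrial UMIs, with a median of 1729.5 UMIs (799 to 18595), and 7 lay in between. The nuclear RNA Malat1 was detected in 29 of the 30 cells of the first class and was not detected in 35 of the 56 of the second. These class limits were chosen after the values were seen. The first class had 8, 10, 8 and 4 cells and the second 16, 5, 24 and 11 cells in NCD, HFD replicate 1, HFD replicate 2 and JQF, the order used for every list of 4 values below. Of these second-class cells 13, 1, 6 and 1 held Malat1, so most of them lacked it in every library but NCD. The transcript Gm42418 made up a median of 11.9%, 5.99%, 1.60% and 3.11% of their UMIs. The second class was thus not alike between libraries, and the part of this in fits within it was not tested. Median UMIs per hepatocyte were 1098.5, 38298, 3987 and 2431, against 13109, 7601, 7876.5 and 8890 for the other cells kept, so the median was above that of the other cells in HFD replicate 1 and below it in the other libraries. Summed over a library, the hepatocytes gave 256456, 468657, 401687 and 82627 UMIs. The largest single cell held 25.7%, 17.1%, 19.0% and 35.0% of these sums, and JQF thus rested on the fewest UMIs and most heavily on 1 cell.

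**Figure D1:**
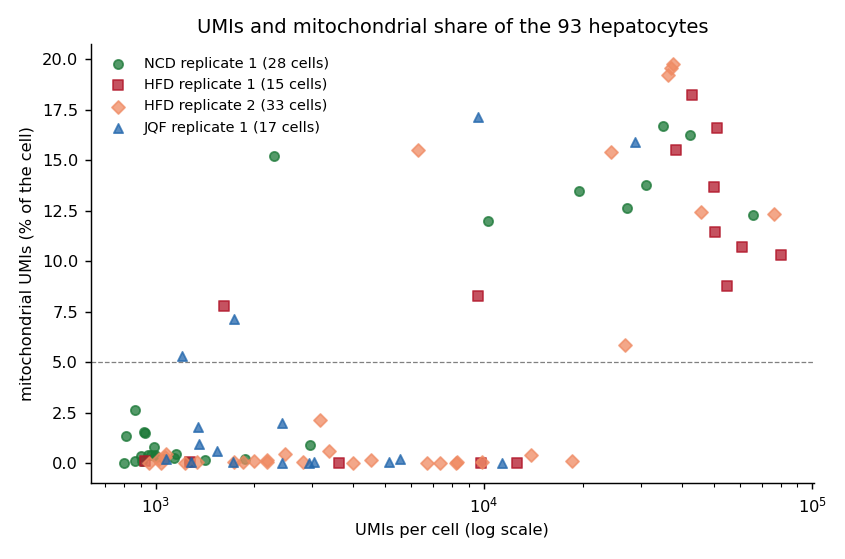
UMIs per cell (log scale) against the mitochondrial share of UMIs (percent) for the 93 hepatocytes, 1 point per cell, colored by library; the dashed line is at 5%. The 30 cells above the line include all 21 cells with at least 20000 UMIs, and most of the cells below it have under 1% mitochondrial UMIs.

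Levels are given in CPM, the UMIs of a gene per 1000000 UMIs. The genes that chose the cells were high in them by construction. Alb, the main plasma protein, had 73420 CPM in NCD, 31296 and 29069.9 CPM in HFD replicates 1 and 2, and 28151 CPM in JQF. Ttr, which carries thyroid hormone and retinol-binding protein, had 7179, 10462, 7747 and 7613 CPM. Cyp2e1, an alcohol- and drug-oxidizing enzyme, and Pck1, the gluconeogenic phosphoenolpyruvate carboxykinase, were not part of the rule, so they served to check the label, and both were detected in all 4 libraries. Cyp2e1 had 1189, 1001, 2208 and 4575 CPM in the hepatocytes and 31.0, 6.20, 10.4 and 27.9 CPM in the other cells kept. Pck1 had 2808, 1353, 1805 and 3074 CPM in the hepatocytes and 18.6, 17.5, 45.6 and 8.26 CPM in the other cells, so both genes were far higher in the cells chosen than around them.

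Summed over a library, markers of other cell types were low in the hepatocytes, but such sums follow the largest cells. In NCD the cells with at least 5% mitochondrial UMIs held 91.1% of the hepatocyte UMIs. Most of the NCD endothelial and macrophage marker UMIs lay in the remaining NCD cells, so the sums do not show low levels there. The 12 endothelial markers summed to 164, 12.8, 37.3 and 24.2 CPM, against 8782, 271, 1171 and 728 CPM in the other cells, and were highest in NCD in both. The macrophage and monocyte markers gave 113, 23.5, 134 and 72.6 CPM (709 to 8595 CPM in other cells), the T and NK cell markers 46.8, 4.27, 9.96 and 36.3 CPM, the neutrophil markers 3.90, 0, 14.9 and 24.2 CPM, and the stellate markers 7.80, 0, 2.49 and 0 CPM. Of the 93 cells, 67 held at least 1 UMI of these markers or of the B cell and erythroid markers, and a few held more. In NCD, 1 cell of 2956 UMIs held 10 UMIs of T and NK cell markers and 4 of macrophage markers, and 1 cell of 868 UMIs held 6 of endothelial markers. In HFD replicate 2, 1 cell of 3361 UMIs held 7 of macrophage and 2 of neutrophil markers. The rule kept these cells, and whether they held more than 1 cell was not tested. Biliary epithelial markers gave 97.5, 213, 747 and 96.8 CPM in the hepatocytes, against 89.4, 909.6, 581 and 945 CPM in the other cells. In HFD replicate 2 most of this came from 1 cell of 26903 UMIs, which held 246 UMIs of Spp1, 15 of the duct transcription factor Sox9 and 6 of Cldn3, with no Krt19, Krt7 or Epcam. Counts are therefore also given without this cell where it matters.

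By this rule hepatocytes made up 0.469% of kept cells in NCD (95% exact Clopper-Pearson interval 0.312 to 0.677), 0.230% (0.129 to 0.379) and 0.322% (0.222 to 0.451) in the HFD libraries, and 0.199% (0.116 to 0.319) in JQF. The intervals cover counting error only, and with 1 library in NCD and JQF there was no test between groups. The intervals of NCD and both HFD libraries overlapped, and with at least 1000 genes per cell the order turned, with 0.146% in NCD and 0.195% and 0.228% in the HFD libraries. Shares in a digested suspension reflect survival and capture as well as the tissue, and these cannot be told apart here. The cells at the threshold were close to those left out. The lowest hepatocyte had 2.19%, 2.14%, 2.01% and 2.01% of its UMIs from the 4 genes. The highest cell under 2% that met the other limits had 1.76%, 1.97%, 1.98% and 1.89%. Of the kept cells 42, 22, 42 and 28 reached 2%, and those not taken as hepatocytes were left out for Ptprc, Epcam, or Ptprb and Stab2. No cell barcode was a hepatocyte in more than 1 library.

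Zonation split the hepatocytes into cells with Cyp2f2 and cells with Cyp2e1. Among the 30 cells with at least 5% mitochondrial UMIs, most of which had over 20000 UMIs, 14 had more Cyp2f2, 15 had more Cyp2e1 and 1 had neither, and both transcripts were found together in 3 cells. Cyp2f2-higher cells numbered 7, 4, 3 and 0 and Cyp2e1-higher cells 1, 6, 4 and 4. NCD hepatocytes of this class were thus mostly Cyp2f2-higher, HFD held both kinds, and all 4 of JQF were Cyp2e1-higher. The 56 cells under 1% mitochondrial UMIs did not show this split between libraries, though their classes often rest on few UMIs. In NCD 1 of them had more Cyp2f2 and 15 more Cyp2e1, in HFD replicate 1 0 and 3, in HFD replicate 2 2 and 13, and in JQF 4 and 4, and 14 cells had neither. These 4 Cyp2f2-higher cells of JQF held 3, 1, 3 and 1 UMIs of Cyp2f2, and some of the Cyp2e1-higher cells of NCD held 1 UMI of Cyp2e1. Free RNA, described below, held more Cyp2e1 than Cyp2f2 in each library (1769 against 236 UMIs in NCD). Its part in these classes was not tested. Over all classes NCD had 8 Cyp2f2-higher and 20 Cyp2e1-higher cells and JQF 5 and 9.

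**Figure D2:**
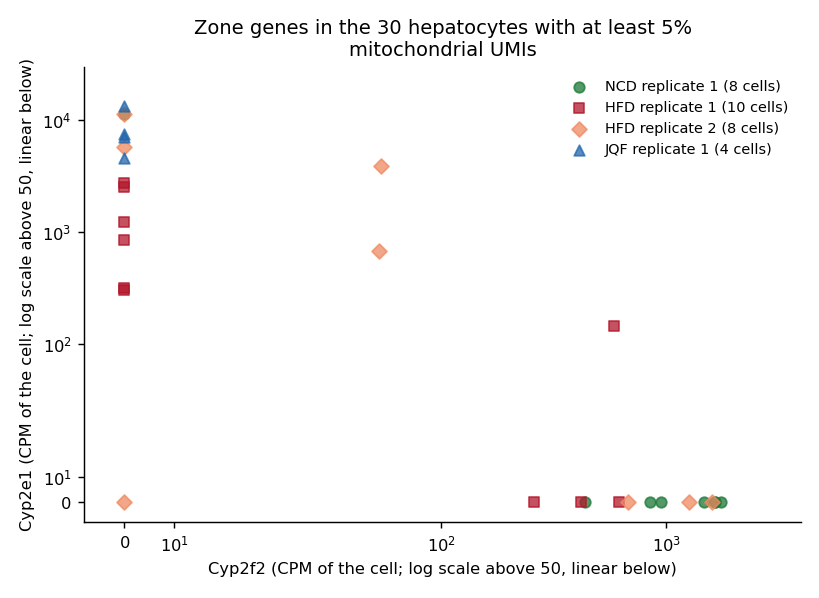
Cyp2f2 (horizontal) and Cyp2e1 (vertical) in CPM of the cell, both axes logarithmic above 50 CPM and linear below, for the 30 hepatocytes with at least 5% mitochondrial UMIs, 1 point per cell. Most cells lie on 1 of the axes, with 7 of the 8 NCD cells on the Cyp2f2 axis and all 4 JQF cells on the Cyp2e1 axis.

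The cells with at least 5% mitochondrial UMIs carried most UMIs, so their makeup bears on every comparison of summed hepatocytes, and its part in them was not tested. Cyp2f2 itself, a periportal cytochrome P450, had 1053 CPM in NCD, 143 and 222 CPM in HFD replicates 1 and 2, and 133 CPM in JQF, a log2 fold change (HFD over NCD, ± SE) of -2.70 ± 0.38, adjusted p = 2.7e-10. For Cyp2e1, whose levels are given above, the HFD libraries lay on both sides of NCD, and it did not pass the test there (0.26 ± 0.36, adjusted p = 0.745). It was higher in JQF than in HFD (1.44 ± 0.35, adjusted p = 0.00513), but not called with library totals or with DESeq2. Of its 378 JQF UMIs 202 and 127 lay in 2 cells. Results below are therefore given beside the same fit within Cyp2f2-higher or Cyp2e1-higher cells, both limited to the cells with at least 5% mitochondrial UMIs. These subsets were chosen after the data were seen, and they differ from all hepatocytes in zone and in this limit at once, so counts within them do not show the part of either. Since Cyp2f2 and Cyp2e1 set this split, neither is compared within it.

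The first comparison asked how hepatocytes of mice on a high-fat diet differed from those on chow. UMIs were summed over the hepatocytes of each library and tested with edgeR's quasi-likelihood test with Benjamini-Hochberg adjustment over 5179 genes, at an adjusted p under 0.05. In HFD against NCD 347 genes passed the test (6.7% of genes tested), 154 of them higher in HFD (2.97%) and 193 lower (3.73%), and the median log2 fold change over all genes was 0.06. The spread was estimated from the HFD pair alone, with 1 residual degree of freedom. NCD and JQF, with no second library, were taken to vary to the same extent. In this fit the prior degrees of freedom were infinite, so each gene's spread was set by the trend over all genes. An SE or p-value thus does not reflect a gene's own spread between the HFD libraries. The number called by edgeR ranged from 0, with 41 marker genes of other cell types strictly excluded (827 genes tested, 47 at an unadjusted p under 0.05), to 416, in the cells with at least 5% mitochondrial UMIs, and was 42 with DESeq2. Within Cyp2f2-higher cells 101 of 2871 genes were called, 35 higher and 66 lower, and all 290 of the genes called above that could be tested there kept their direction, 88 of them called again. Within Cyp2e1-higher cells, where NCD had 1 cell, 62 of 2489 were called, 39 higher and 23 lower, and 232 of 259 genes kept their direction. The cells of both subsets are among those summed above, and the Cyp2f2-higher cells held most of the NCD UMIs. Kept directions and repeated calls are therefore not independent checks.

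Most of the sex-biased genes tested were lower in HFD. Of 18 sex-biased genes tested 11 were lower in HFD and 1 was higher, with a median log2 fold change of -2.40 against 0.06 for all genes. Within Cyp2f2-higher cells 7 of 15 were lower and 1 was higher. Within Cyp2e1-higher cells 8 could be tested, and 1 was lower and 0 higher. With library totals in place of TMM scaling 10 of 18 were lower and 1 higher, and DESeq2 called 3. Mup7 (GRCm38 chromosome 4, 60066469 to 60070475, minus strand), a major urinary protein that binds pheromones, had 495 CPM in NCD, 0 and 4.98 CPM in HFD replicates 1 and 2, and 72.6 CPM in JQF. It was found in 127 UMIs in NCD and in 2 over both HFD libraries, and the NCD level was higher by a ratio of 216 (95% exact interval 58.4 to 1799), with an adjusted p = 1.1e-29. Mup1 had 159.9, 0, 14.9 and 84.7 CPM, and Mup3 had 13262, 4065, 3505 and 3728 CPM (-1.97 ± 0.33, adjusted p = 4.0e-07). Both HFD libraries lay below NCD for each of these genes. Mup20, or darcin, went its own way, with 13632, 12339.5, 10157 and 3558 CPM, and did not pass the test (-0.44 ± 0.34, adjusted p = 0.510). The Mup genes are near-identical copies on chromosome 4, so reads may be shared between them and single members are uncertain.

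Slco1a1, an uptake transporter for bile acids and steroids, and Cyp7b1, an oxysterol hydroxylase, are male-biased genes outside the Mup cluster. Slco1a1 was listed with 32, 1, 1 and 2 UMIs, an NCD level higher by a ratio of 54.3 (95% exact interval 13.9 to 468). Its mean was below 50 CPM, and it was named outside the rule used for the other genes. Cyp7b1 had 183, 19.2, 32.4 and 36.3 CPM (-2.99 ± 0.51, adjusted p = 7.0e-07). The member that rose was Cyp2b9, a cytochrome P450 that is female-biased in mouse liver. It had 0, 111, 84.6 and 84.7 CPM, with 0 UMIs in NCD, and was at least 8.45-fold higher in HFD (against a floor of 3 UMIs over the group; adjusted p = 1.1e-05). Mup7, Mup1, Mup3, Slco1a1 and Cyp7b1 thus fell while Cyp2b9 rose, and the JQF level of Cyp2b9 was within the range of the HFD libraries.

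Serpina1 genes encode alpha-1-antitrypsin, the main plasma inhibitor of neutrophil elastase, in 5 neighboring copies on chromosome 12. Serpina1e (GRCm38 chromosome 12, 103946931 to 103958975, minus strand) fell most, with 2273 CPM in NCD, 40.5 and 119 CPM in HFD replicates 1 and 2, and 96.8 CPM in JQF (-5.01 ± 0.39, adjusted p = 1.1e-32). Serpina1d had 2858, 817, 827 and 1477 CPM (-1.96 ± 0.35, adjusted p = 2.0e-06). Serpina1a had 3630.2, 1959, 2168 and 2142 CPM and Serpina1b 4831, 2377, 3049.6 and 3570.3 CPM, and neither passed the test (-0.98 ± 0.34, adjusted p = 0.0587 and -1.0 ± 0.34, adjusted p = 0.0502). Serpina1c, a gene of the rule, had 6641, 2249, 2654 and 4006 CPM. The copies therefore ranged from a difference that did not pass the test to the -5.01 of Serpina1e, though shared reads make single copies uncertain.

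The promoters of these copies are shown because genes of such different behavior carry nearly the same letters there. Each line is 120 bases of the minus strand of RefSeq's GRCm38.p6, 5′ to 3′, aligned on the letters GTTAAT, the core of a site of the hepatocyte factor HNF1, which lie 16 to 78 bases before the RefSeq start of the gene; capitals mark letters that differ from Serpina1c. The windows are chr12:103904938-103905057 for Serpina1c, chr12:103863601-103863720 for Serpina1a, chr12:103738176-103738295 for Serpina1b, chr12:103773610-103773729 for Serpina1d and chr12:103956936-103957055 for Serpina1e. For Serpina1e and Serpina1b the gene span of GENCODE, used for the coordinates above, begins upstream of these windows, so the start differs between the annotations. Against Serpina1c, 116 of 120 letters were the same in Serpina1e, 111 in Serpina1d and 115 in both Serpina1a and Serpina1b. The letters GTTAAT, sought on both strands, were found in 7.10% of the 32851 promoter windows of 300 bases, and a match is a description of letters, not of a bound site.
Serpina1c: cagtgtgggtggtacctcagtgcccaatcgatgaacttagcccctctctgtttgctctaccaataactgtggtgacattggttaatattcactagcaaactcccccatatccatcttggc
Serpina1a: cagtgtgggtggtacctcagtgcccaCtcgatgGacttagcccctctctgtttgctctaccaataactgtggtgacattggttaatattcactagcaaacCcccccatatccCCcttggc
Serpina1b: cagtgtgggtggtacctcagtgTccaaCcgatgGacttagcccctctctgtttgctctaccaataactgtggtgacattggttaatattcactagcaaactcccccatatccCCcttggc
Serpina1d: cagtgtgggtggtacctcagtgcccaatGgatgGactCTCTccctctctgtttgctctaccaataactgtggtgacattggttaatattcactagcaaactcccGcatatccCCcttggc
Serpina1e: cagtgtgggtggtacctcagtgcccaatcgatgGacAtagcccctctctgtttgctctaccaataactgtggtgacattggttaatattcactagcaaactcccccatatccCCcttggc

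Other secreted plasma proteins were divided. Of 19 coagulation factors and serpins tested 6 were lower and 0 higher (median -0.98), and of 19 complement genes 6 were lower and 0 higher (median -0.48). Of 22 acute phase genes 6 were lower and 5 higher (median -0.11). Serpina3k, an inhibitor of tissue kallikrein, had 8224 CPM in NCD, 954 and 839 CPM in HFD replicates 1 and 2, and 2372 CPM in JQF (-3.36 ± 0.34, adjusted p = 1.9e-19). Hamp, which encodes the iron hormone hepcidin, had 4796, 900.4, 627 and 1428 CPM (-2.81 ± 0.34, adjusted p = 2.5e-13). The fibrinogen chains fell together, by log2 fold changes of -1.76 ± 0.35 for Fga, -1.70 ± 0.34 for Fgb and -1.48 ± 0.35 for Fgg. In these zone subsets the calls were few: 1 of 18 coagulation genes and 1 of 19 complement genes were lower in Cyp2f2-higher cells, and 1 of 17 and 0 of 17 in Cyp2e1-higher cells. In all cells with at least 5% mitochondrial UMIs 8 and 6 of 19 were lower. More acute phase genes were called there, with 3 of 21 higher and 2 lower in Cyp2f2-higher cells and 4 of 20 higher and 4 lower in Cyp2e1-higher cells. With library totals 2 coagulation and 2 complement genes were lower, and 4 acute phase genes were higher and 5 lower. DESeq2 called 2, 0 and 5.

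On the other side stood Hp, or haptoglobin, which binds free hemoglobin, with 1759, 5089, 3478 and 1501 CPM (1.12 ± 0.37, adjusted p = 0.0420), and the acute phase apolipoprotein Saa2, with 0 CPM in NCD, 25.6 and 207 CPM in HFD replicates 1 and 2, and 0 CPM in JQF. Saa2 had 0 UMIs in NCD and was at least 9.33-fold higher in HFD, but the HFD libraries differed widely from one another. Orm2, or orosomucoid, had 3.90, 64.0, 271 and 12.1 CPM, a ratio of HFD to NCD of 41.0 (95% exact interval 7.23 to 1629). Serpina7, the thyroxine-binding globulin, was at 0 UMIs in NCD, at 179 and 157 CPM in HFD and at 36.3 CPM in JQF, at least 14.4-fold higher in HFD than in NCD. Both HFD libraries lay above NCD and JQF for Serpina7 and for Hp.

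Genes of amino acid and ammonia handling that passed the test were lower. Of 25 urea cycle and amino acid breakdown genes 11 were lower and 0 higher (median -1.0). Within Cyp2f2-higher cells 4 of 24 were lower (median -0.83), and within Cyp2e1-higher cells, where NCD had 1 cell, 4 of 21 (median -1.22). In all cells with at least 5% mitochondrial UMIs 21 of 24 were lower (median -1.43), so far fewer passed within either zone. With library totals 4 were lower, without the biliary-rich cell 7, and DESeq2 called 3. Cps1, which commits ammonia to the urea cycle, had 2343 CPM in NCD, 787 and 388 CPM in HFD replicates 1 and 2, and 1331 CPM in JQF (-2.15 ± 0.35, adjusted p = 1.4e-07). Asl, argininosuccinate lyase, had 686, 262, 361 and 1017 CPM (-1.30 ± 0.38, adjusted p = 0.0139). Mat1a, the methionine adenosyltransferase of adult liver, had 6761, 1218, 1819.8 and 3340.3 CPM (-2.32 ± 0.34, adjusted p = 1.6e-09), and Hal, histidine ammonia-lyase, had 643, 143, 112 and 387 CPM (-2.49 ± 0.39, adjusted p = 4.5e-08). Both HFD libraries lay below NCD and JQF for each of these 4 genes. Of 8 gluconeogenesis genes 3 were lower, among them G6pc, the last step of glucose release (542, 119, 107 and 339 CPM; -2.41 ± 0.40, adjusted p = 3.7e-07). Within Cyp2f2-higher cells 2 of 7 were lower, within Cyp2e1-higher cells 0 of 6 were called by edgeR, and DESeq2 called 1.

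The 19 periportal genes tested, several of which are also urea cycle genes, had 11 lower and 1 higher (median -1.25), and the 15 pericentral genes 3 lower and 2 higher (median 0.03). Leaving out Cyp2f2 and Cyp2e1, Cyp2f2-higher cells had 3 of 18 periportal genes lower and 1 higher (median -0.55) and 2 of 7 pericentral genes lower. Cyp2e1-higher cells had 1 of 11 periportal genes lower and 2 higher, and 4 of 13 pericentral genes lower. In all cells with at least 5% mitochondrial UMIs 15 of 18 periportal genes were lower and 1 higher (median -1.56). Of 14 pericentral genes 6 were higher there and 2 lower (median 0.60), so their balance turned. With library totals and without the biliary-rich cell 6 periportal genes were lower. Pericentral genes then had 1 and 2 lower, and 0 higher in both. DESeq2 called 6 periportal and 0 pericentral genes, and 9 of the pericentral genes had an unadjusted p under 0.05 with edgeR. Etnppl, an enzyme of phosphoethanolamine breakdown, had 523 CPM in NCD, 34.1 and 37.3 CPM in HFD replicates 1 and 2, and 254 CPM in JQF (-4.02 ± 0.45, adjusted p = 8.5e-16). It was lower in both HFD libraries and between the groups in JQF. The periportal gene that rose was Apoa4, described below.

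Bile acid and drug metabolism genes that passed the test were mostly lower. Of 22 bile acid genes 7 were lower and 0 higher (median -0.88), with 4 of 19 lower in Cyp2f2-higher and 2 of 18 in Cyp2e1-higher cells. With library totals and without the biliary-rich cell 4 were lower, and DESeq2 called 1. Slc10a1, the sodium-dependent bile acid importer, had 682, 141, 124 and 327 CPM (-2.52 ± 0.39, adjusted p = 2.4e-08), and Cyp8b1, which directs synthesis to cholic acid, had 246, 93.9, 112 and 169 CPM (-1.42 ± 0.45, adjusted p = 0.0291). Of 34 drug metabolism genes 10 were lower and 4 higher (median -0.50). Leaving out Cyp2f2 and Cyp2e1, 5 were lower and 1 higher in each zone, of 28 in Cyp2f2-higher and of 31 in Cyp2e1-higher cells. With library totals 6 were lower and 3 higher, and DESeq2 called 3. Cyp2c54 and Cyp2c50 are neighboring cytochrome P450 copies whose reads may be shared. Cyp2c54 had 159.9 CPM in NCD, 0 and 7.47 CPM in HFD replicates 1 and 2, and 182 CPM in JQF, an NCD level higher by a ratio of 46.4 (95% exact interval 14.8 to 234). Cyp2c50 had 355, 61.9, 122 and 666 CPM (-2.12 ± 0.42, adjusted p = 3.7e-05). Both were lower in HFD than in either other group. The phase 2 enzyme Gstp1 was among those that rose, with 46.8, 277, 289 and 84.7 CPM (2.42 ± 0.55, adjusted p = 5.9e-04).

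Egfr, Igfbp2 and Ern1, which are in none of the lists, were among the 12 largest falls. Egfr, the receptor of epidermal growth factor, had 1072 CPM in NCD, 74.7 and 27.4 CPM in HFD replicates 1 and 2, and 60.5 CPM in JQF (-4.52 ± 0.41, adjusted p = 2.5e-24). Igfbp2, which binds insulin-like growth factors, had 448, 51.2, 52.3 and 327 CPM (-3.27 ± 0.44, adjusted p = 5.3e-11). Ern1, a sensor of unfolded protein in the endoplasmic reticulum, had 324, 46.9, 19.9 and 24.2 CPM (-3.39 ± 0.47, adjusted p = 1.3e-10), but 96.4% of its NCD UMIs lay in 3 cells. The list of endoplasmic reticulum stress genes had 14 members tested (median 0.51). By edgeR and by DESeq2 none of them, and none of the 18 hepatocyte transcription factors (median -0.43), passed over all hepatocytes, with 0 and 6 genes at an unadjusted p under 0.05. In cells with at least 5% mitochondrial UMIs 1 of 17 transcription factors was lower with edgeR.

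Several genes of fat storage rose. Of 13 lipid droplet genes 4 were higher and 0 lower (median 1.20), with 1 of 7 higher in Cyp2f2-higher cells and 1 of 10 in Cyp2e1-higher cells. With library totals 4 were higher, while DESeq2 called 0, and 8 had an unadjusted p under 0.05 with edgeR. Cidec, a lipid droplet protein that drives droplet fusion, was detected in hepatocytes of the HFD libraries and not in those of NCD or JQF, at 147 and 52.3 CPM, in 8 and 7 cells. This made it at least 8.84-fold higher than in NCD (adjusted p = 1.1e-05). It had a mean below 50 CPM and was chosen for the text after its values were seen. Fitm1, which helps form droplets, had 3.90, 162, 192 and 36.3 CPM, a ratio of HFD to NCD of 45.1 (95% exact interval 7.97 to 1792), and the fatty acid transporter Cd36 had 23.4, 196, 254 and 60.5 CPM (3.08 ± 0.63, adjusted p = 7.4e-05). Plin2, which coats droplets, had 343, 888, 709.5 and 726 CPM and did not pass the test (1.06 ± 0.40, adjusted p = 0.0928).

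Apoa4 (GRCm38 chromosome 9, 46240696 to 46243459, plus strand), an apolipoprotein of triglyceride-rich particles, rose in HFD. It had 249.6 CPM in NCD, 2838 and 2741 CPM in HFD replicates 1 and 2, and 96.8 CPM in JQF, a log2 fold change of 3.32 ± 0.44, adjusted p = 3.2e-11. The HFD pair differed little and no other library reached it. Apoc2, the cofactor of lipoprotein lipase, had 549.8, 2853, 1660.5 and 799 CPM (1.88 ± 0.40, adjusted p = 1.7e-04), and Apob, the backbone of very-low-density lipoprotein, had 4231, 1449, 1571 and 1464 CPM and was lower (-1.65 ± 0.34, adjusted p = 8.9e-05). The 18 apolipoprotein and assembly genes had 2 higher and 2 lower (median -0.23), and in each zone 2 higher and 0 lower. DESeq2 called 3.

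Fat synthesis and oxidation were mixed. Of 16 lipogenesis genes 3 were higher and 1 lower (median 0.20). Thrsp, a regulator of lipogenesis, had 31.2, 222, 326 and 641 CPM (2.95 ± 0.58, adjusted p = 2.9e-05), and Scd1, which desaturates fatty acids, had 6691, 2219, 4777 and 1888 CPM (-1.10 ± 0.34, adjusted p = 0.0240). Thrsp thus rose and Scd1 fell, but Scd1 no longer passed with library totals (-0.92, adjusted p = 0.162), without the biliary-rich cell (-0.99, adjusted p = 0.0618), in cells with at least 5% mitochondrial UMIs (-0.87, adjusted p = 0.0847) or in either zone. Within Cyp2f2-higher cells 3 of 15 lipogenesis genes were higher and 0 lower, and within Cyp2e1-higher cells 0 of 13 were called by edgeR. DESeq2 called 1. Of 32 genes of fatty acid oxidation and PPAR-alpha targets 4 were higher and 2 lower (median 0.41), against 1 higher and 2 lower of 28 in Cyp2f2-higher and 0 higher and 2 lower of 32 in Cyp2e1-higher cells. DESeq2 called 2. Fabp1, the liver fatty acid binding protein, had 6874, 17362, 21342 and 17851 CPM (1.33 ± 0.36, adjusted p = 0.00736), whereas Cyp4a10 and Cyp4a14, which oxidize the far end of fatty acids, were lower. Cyp4a10 had 1505, 216, 319 and 919.8 CPM (-2.66 ± 0.36, adjusted p = 9.9e-11). The Cyp4a genes are near copies and may share reads.

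Several genes of hepatocyte injury and dedifferentiation rose, with 6 of 13 called and 0 lower (median 1.5). Within Cyp2f2-higher cells 3 of 8 were higher, and within Cyp2e1-higher cells 2 of 9. Without the biliary-rich cell 4 of 12 were higher (median 1.29), since Spp1 and Krt8 no longer passed, and DESeq2 called 1. Cdkn1a, the cell cycle inhibitor p21, had 3.90 CPM in NCD, 117 and 192 CPM in HFD replicates 1 and 2, and 24.2 CPM in JQF, a ratio of HFD to NCD of 38.9 (95% exact interval 6.86 to 1548). Anxa5, a phospholipid-binding annexin, had 27.3, 446, 483 and 133 CPM (3.91 ± 0.59, adjusted p = 6.6e-09). The keratins of the hepatocyte cytoskeleton rose as well, by 2.14 ± 0.53 for Krt18 and 1.35 ± 0.44 for Krt8, the latter with an adjusted p = 0.0391 that became 0.0812 without the biliary-rich cell. For each of these genes both HFD libraries lay above NCD. Summed over the list, the hepatocytes had 577, 1694, 3027 and 980 CPM and the other cells kept 4462, 20563, 19306 and 15942 CPM. Both were higher in each HFD library than in NCD, and the part of other cells in these levels was not tested. Spp1, or osteopontin, had 1, 13, 249 and 3 UMIs, but 246 of the 249 in HFD replicate 2 came from the 1 cell rich in biliary markers. Without that cell 226 genes were called in place of 347.

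Further genes on this side are also expressed by other cells of the suspension. Lgals1, galectin-1, had 3.90 CPM in NCD, 326 and 386 CPM in HFD replicates 1 and 2, and 72.6 CPM in JQF in hepatocytes and 113, 312, 327 and 346 CPM in the other cells. Ly6d, a small membrane-anchored protein, had 0 UMIs in NCD hepatocytes, 373 and 122 CPM in HFD and 12.1 CPM in JQF, and was at least 22.0-fold higher in HFD than in NCD. In other cells it had 31.2, 60.6, 106 and 442 CPM, and the JQF level there was the highest while the JQF level in hepatocytes was low. The part of other cells in these levels was not tested. Hspb1, a small heat shock protein, had 3.90, 384, 184 and 24.2 CPM in hepatocytes and 47.7, 35.8, 31.9 and 53.3 CPM in the other cells, and was thus higher in HFD hepatocytes than in the cells around them. Mt1, a metallothionein, had 191, 604, 1239.8 and 593 CPM (2.10 ± 0.44, adjusted p = 9.8e-05).

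**Figure D3:**
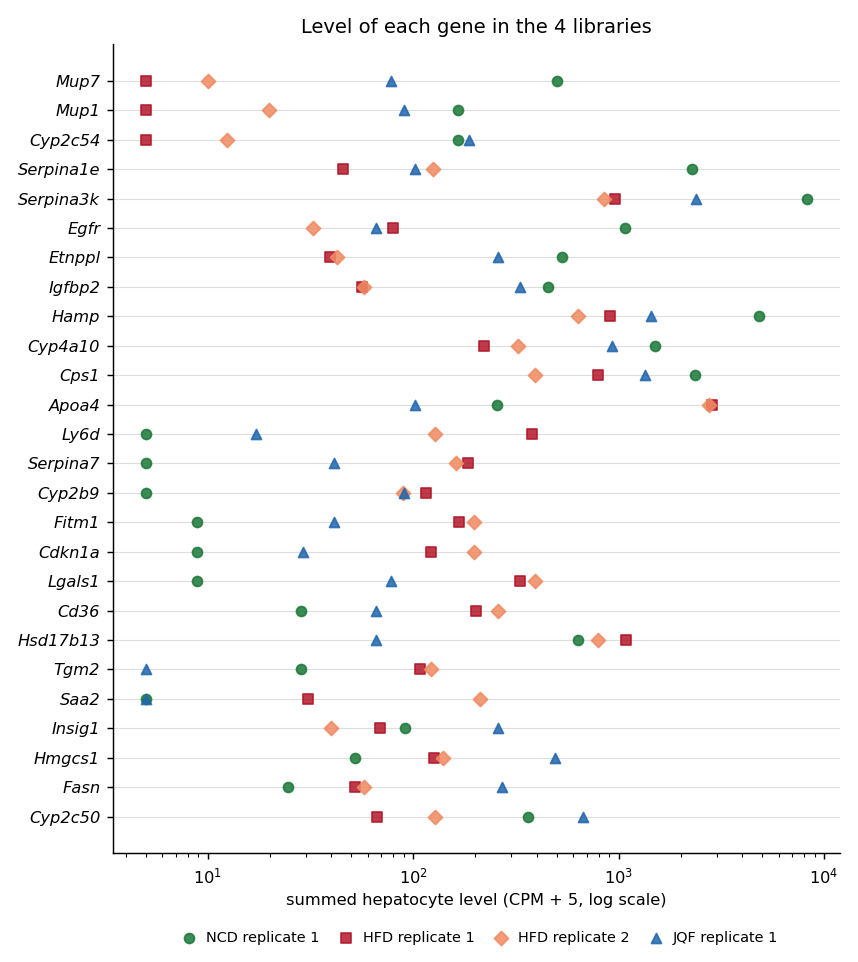
Level of 26 genes of the text in the summed hepatocytes of the 4 libraries (CPM + 5, log scale), 1 point per library. For Mup7, Serpina1e, Egfr and Hamp the NCD point lies to the right of both HFD points, and for Apoa4, Ly6d, Serpina7 and Lgals1 both HFD points lie to the right of NCD and JQF.

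The second comparison asked how hepatocytes of mice given the formula differed from those of HFD mice. In JQF against HFD 64 of 5179 genes passed the test (1.24%), 37 higher in JQF (0.714%) and 27 lower (0.521%), and the median log2 fold change over all genes was -0.07. With library totals in place of TMM scaling 13 passed, 5 higher and 8 lower, so the balance of directions turned. DESeq2 called 9, and leaving out the 5% of hepatocytes with the most UMIs in each library, which removes the JQF cell with 35.0% of that library's UMIs, left 3. Within Cyp2e1-higher cells, the zone class that all 4 JQF cells with at least 5% mitochondrial UMIs fell into, 74 of 2489 were called, 39 higher and 35 lower, and 60 of the 61 genes called above that could be tested kept their direction, 38 of them called again. All of these counts rest on 17 JQF cells. The 4 of them used within Cyp2e1-higher cells held 50.1% of the JQF UMIs, so kept directions there are not an independent check. Both comparisons share the HFD libraries and are not independent of one another.

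Several cholesterol synthesis genes were higher in JQF. Of 16 genes of cholesterol synthesis and uptake 3 were higher and 0 lower (median 1.01 against -0.07 for all genes), and within Cyp2e1-higher cells 4 of 12 were higher. With library totals and with DESeq2 0 of them passed, and without the biliary-rich cell 2 did, while 6 had an unadjusted p under 0.05 with edgeR. Hmgcs1 (GRCm38 chromosome 13, 119690379 to 119708260, plus strand), an early enzyme of the pathway, had 46.8 CPM in NCD, 122 and 134 CPM in HFD replicates 1 and 2, and 484 CPM in JQF (1.84 ± 0.46, adjusted p = 0.0103). Insig1, a sterol-sensing brake on the pathway, had 85.8, 64.0, 34.9 and 254 CPM (2.26 ± 0.54, adjusted p = 0.00489). JQF was the highest library for both. Fasn, fatty acid synthase, had 19.5, 46.9, 52.3 and 266 CPM (2.34 ± 0.54, adjusted p = 0.00318). It was the 1 lipogenesis gene of 16 that passed, and it did not pass with library totals or with DESeq2. In JQF 90.5% of the Insig1 UMIs and 77.3% of the Fasn UMIs lay in 3 cells. A stricter rule of at least 5% of UMIs from the 4 genes left 3 JQF cells with 13357 UMIs, which held 0 UMIs of Fasn and of Insig1. At the HFD level 1.09 and 1.16 UMIs would be expected there, and at the level of all JQF hepatocytes 3.56 and 3.39. These cells thus did not show the rise, and their depth could not show a fall.

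The promoter of Hmgcs1 is shown for its sterol regulatory element, the letters that SREBP2, the activator of this pathway, is known to bind. The window is chr13:119690101-119690400 on the plus strand of RefSeq's GRCm38.p6, with the letters TCACNCCAC in capitals. They were sought on both strands and found in 1.24% of all 32851 promoter windows and in 1 of the 15 cholesterol genes that have a window, which is a description of letters and says nothing of the factor.
Hmgcs1: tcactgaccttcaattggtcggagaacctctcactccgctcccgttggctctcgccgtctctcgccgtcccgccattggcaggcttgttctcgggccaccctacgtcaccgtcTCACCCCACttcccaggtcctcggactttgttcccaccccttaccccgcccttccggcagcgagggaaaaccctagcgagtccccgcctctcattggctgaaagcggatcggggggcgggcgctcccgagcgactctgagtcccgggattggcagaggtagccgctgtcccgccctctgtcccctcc

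Drug metabolism and amino acid genes also held more members that were higher in JQF. Of 34 drug metabolism genes 5 were higher and 1 lower (median 0.35), and within Cyp2e1-higher cells, leaving out Cyp2e1, 3 of 31 were higher and 2 lower. With library totals 2 were higher and 1 lower, without the biliary-rich cell 3 and 1, and DESeq2 called 2. Of 15 pericentral genes 3 were higher (Cyp2c50, Cyp2c29 and Cyp2e1, also in the drug list) and 1 lower (median 0.79). Of 19 periportal genes 2 were higher and 2 lower (median 0.84). In cells with at least 5% mitochondrial UMIs, where all 4 JQF cells were Cyp2e1-higher, 6 of 14 pericentral genes were higher and 1 lower. Of 18 periportal genes 2 were higher there and 4 lower, and the part of zone in these counts was not tested. Cyp2c50, at 355, 61.9, 122 and 666 CPM, was higher in JQF than in any other library (2.79 ± 0.44, adjusted p = 2.8e-07). Of its 55 JQF UMIs 94.5% lay in 3 cells, and it did not pass without the top 5% of cells by UMIs (1.12, adjusted p = 0.571). The sign turned with strict exclusion of other-type markers (-0.11, on 4 JQF UMIs) and in cells under 1% mitochondrial UMIs (-0.49, on 2 JQF UMIs). Cyp2c54 was at 182 CPM in JQF against 0 and 7.47 CPM in HFD, a ratio of 52.7 (95% exact interval 14.9 to 284), with all 15 of its JQF UMIs in 3 cells. Nr1i3, the drug-sensing nuclear receptor CAR, had 81.9, 49.1, 72.2 and 242 CPM (1.92 ± 0.54, adjusted p = 0.0306). It did not pass with library totals, without the biliary-rich cell or with DESeq2. The drug metabolism gene that fell was Cyp3a11, a main drug-oxidizing P450, with 1185, 947, 1066 and 194 CPM (-2.45 ± 0.49, adjusted p = 3.2e-04). Of 25 urea cycle and amino acid genes 4 were higher and 0 lower (median 1.06), and within Cyp2e1-higher cells 5 of 21. With library totals and with DESeq2 0 of them passed, and without the biliary-rich cell 2 did, while 16 had an unadjusted p under 0.05 with edgeR. Asl was higher by 1.63 ± 0.39, adjusted p = 0.00489, Hpd, of tyrosine breakdown, by 1.54 ± 0.37, adjusted p = 0.00459, and Gnmt, glycine N-methyltransferase, by 1.41 ± 0.36, adjusted p = 0.0112.

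Several genes that were lower in HFD than in NCD were higher in JQF than in HFD. Mup7 was higher in JQF by a ratio of 31.6 (95% exact interval 5.65 to 320.1), on 6 UMIs against 2. Serpina3k was higher by 1.33 ± 0.35, adjusted p = 0.0172, Etnppl by 2.74 ± 0.55, adjusted p = 3.2e-04, Igfbp2 by 2.57 ± 0.51, adjusted p = 3.1e-04 and Cyp4a10 by 1.71 ± 0.39, adjusted p = 0.00275. With library totals Mup7, Serpina3k and Cyp4a10 were not called. With DESeq2 Cyp4a10 was not called, and only 2 genes of all tested were higher in JQF. At least 1 of these 2 was a drug metabolism gene, so DESeq2 did not call most of the genes named here. In JQF 96.3% of the Igfbp2 UMIs lay in 3 cells. Etnppl had 0 UMIs in the JQF cells with at least 5% mitochondrial UMIs and in those of the 5% rule, so its 21 JQF UMIs came from the other cells. At the HFD level 1.08 and 0.617 UMIs would be expected in these subsets, and at the level of all JQF hepatocytes 10.5 and 3.39, so the rise was not seen in them. In JQF each of these 5 genes was still below its NCD level. Other genes that were lower in HFD than in NCD and higher in JQF than in HFD lay above NCD in JQF. These were Cyp2c50, Cyp2c54, Hpd, Gnmt and Asl, the last with 686 CPM in NCD and 1017 CPM in JQF. Serpina1e and Egfr, at 96.8 and 60.5 CPM in JQF, lay between the HFD libraries, and Cyp2f2, at 133 CPM, lay below both.

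Among the genes lower in JQF, Apoa4 had the smallest p. Its level of 96.8 CPM lay below both HFD libraries and below NCD (-4.92 ± 0.55, adjusted p = 2.9e-15). This level rested on 8 UMIs in 4 cells, with 87.5% of them in 3 cells. Of 13 lipid droplet genes 2 were lower and 0 higher, against 1 with library totals, 1 with DESeq2 and 1 of 10 within Cyp2e1-higher cells. Their median was -1.50, or -0.49 with the 3 genes that had 0 UMIs in a group set at their bound. Hsd17b13, a lipid droplet enzyme of hepatocytes, had 628 CPM in NCD, 1082 and 792 CPM in HFD replicates 1 and 2, and 60.5 CPM in JQF (-4.02 ± 0.60, adjusted p = 4.6e-08). Cidec had 0 UMIs in JQF and was at least 2.85-fold higher in HFD. Plin2, at 726 CPM in JQF, lay between the HFD libraries.

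Acute phase genes had 5 of 22 lower and 1 higher (median -0.70). With library totals 1 was lower and 0 higher, and DESeq2 called 2. Saa2 had 0 UMIs in JQF and was at least 3.01-fold higher in HFD. This bound rests on HFD replicate 2, since the level of HFD replicate 1, given above, lay below the JQF floor of 36.3 CPM. Saa1, its near copy, had 27.3, 32.0, 520.3 and 24.2 CPM, a ratio of HFD to JQF of 10.6 (95% exact interval 2.91 to 88.3), and for Orm2 the ratio was 13.2 (95% exact interval 2.33 to 525). In both genes HFD replicate 2 carried most of the HFD level. The log2 fold change was -1.59 ± 0.39 for Hp and -2.00 ± 0.40 for hemopexin, Hpx, which binds free heme. Within Cyp2e1-higher cells the list held 1 lower and 2 higher of 20, so the shift toward lower levels was not seen there. Mup20 was lower in JQF than in every other library (3558 CPM; -1.74 ± 0.38, adjusted p = 0.00144). Tgm2, a transglutaminase, had 0 UMIs in JQF, at 23.4, 102, 117 and 0 CPM. Ctsz, a lysosomal cathepsin, had 214, 390.5, 321 and 24.2 CPM, and Bst2, an interferon-inducible membrane protein, 164, 294, 154 and 12.1 CPM. JQF was the lowest library for these 3 genes, which the other cells of the suspension also express.

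Over all hepatocytes no gene of the bile acid, complement, coagulation or gluconeogenesis lists passed edgeR's test in JQF against HFD, of 22, 19, 19 and 8 tested. At an unadjusted p under 0.05 they had 4, 1, 2 and 5 genes, and DESeq2 called 0. In cells with at least 5% mitochondrial UMIs, however, edgeR called 4 of 22 bile acid and 1 of 7 gluconeogenesis genes higher in JQF, and within Cyp2e1-higher cells 1 of 18 and 1 of 6. Over all genes tested 544 had an unadjusted p under 0.05 in this comparison.

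**Figure D4:**
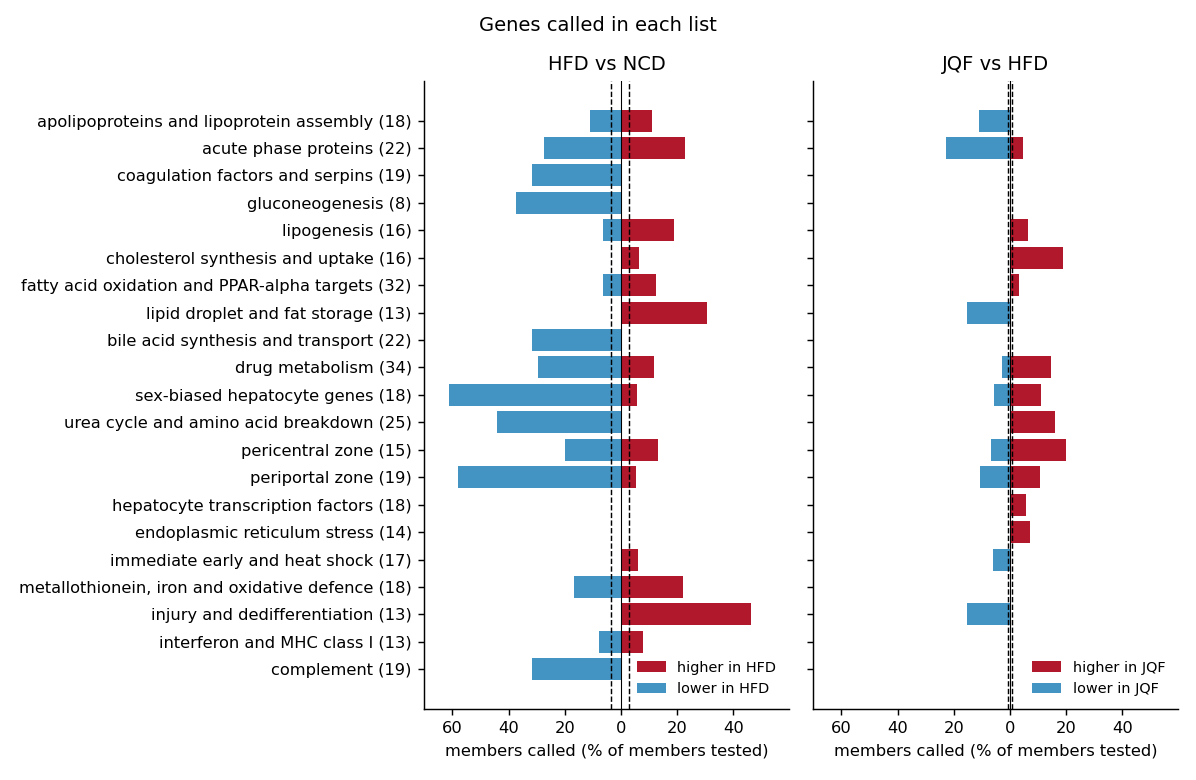
Share of tested genes of each list with at least 8 genes tested (percent, number tested in parentheses) that were higher (red, right) or lower (blue, left) in the first-named group, for HFD against NCD and JQF against HFD; dashed lines mark the share over all genes. Sex-biased, periportal and urea cycle genes reach farthest to the left in HFD against NCD, and of the lists shown injury and lipid droplet genes reach farthest to the right.

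Each library also held free hepatocyte RNA, in barcodes with 1 to 100 UMIs that were not called as cells. These barcodes were not among the cells chosen, though they come from the same libraries. The 4 genes of the rule made up 0.517%, 0.274%, 0.293% and 0.773% of their UMIs, and levels are given per 1000 UMIs of these 4 genes. This scale rests on genes of the rule, so an order is read only where it is the same in CPM of the free RNA. Mup7 stood at 18.9, 0.0874, 0.406 and 2.92, Serpina1e at 17.4, 0.262, 0.406 and 0.790 and Cyp2c54 at 10.9, 0.0874, 0.225 and 5.87. NCD was highest and both HFD libraries were lowest for each, and in the hepatocytes, too, both HFD libraries lay below NCD for these genes. Apoa4 stood at 1.62, 38.4, 23.2 and 5.31, where both HFD libraries were the highest. JQF lay above NCD there, also in CPM (41.1 against 8.37), whereas in the hepatocytes it lay below NCD. Cyp2b9 stood at 0.176, 1.66, 2.39 and 2.77, lowest in NCD.

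For other genes the order turned with the scale. Hmgcs1 stood at 4.82, 10.6, 15.0 and 5.98 per 1000 UMIs of the 4 genes and at 24.9, 28.9, 44.0 and 46.2 CPM of the free RNA, so JQF was below both HFD libraries on the first scale and the highest on the second. Hp stood at 24.0, 132, 95.5 and 53.7 per 1000 and at 124, 362, 279.8 and 415 CPM, and JQF again moved from below HFD to the highest. Pck1 stood at 61.0, 60.1, 95.9 and 24.2 per 1000 and at 315, 164, 281 and 187 CPM, lowest in JQF on the first scale and in HFD replicate 1 on the second. Etnppl stood at 5.21, 0.612, 0.631 and 0.235 per 1000 and at 26.9, 1.67, 1.85 and 1.81 CPM, and on neither scale did JQF lie above both HFD libraries as in the hepatocytes. Cyp2f2 stood at 8.31, 7.25, 6.04 and 3.63 per 1000 and at 42.9, 19.8, 17.7 and 28 CPM, highest in NCD on both. Serpina3k, at 57.0, 20.3, 34.1 and 37.0, had JQF above both HFD libraries and below NCD, as in the hepatocytes. Cyp2c50, at 20.8, 2.88, 5.99 and 12.4, also had JQF above both HFD libraries, but below NCD, whereas in the hepatocytes JQF was above NCD. Cyp2e1, at 62.3, 31.9, 92.1 and 107, was highest in JQF as in the hepatocytes. Mup20, at 60.2, 172, 40.0 and 48.2, had JQF above HFD replicate 2 on both scales, whereas in the hepatocytes JQF was the lowest. Cyp3a11, at 72.7, 31.4, 34.4 and 14.1 per 1000, was lowest in JQF on that scale but above both HFD libraries in CPM. Genes such as Hmgcs1 are expressed in other cells as well, whose share in the free RNA was not tested.

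**Figure D5:**
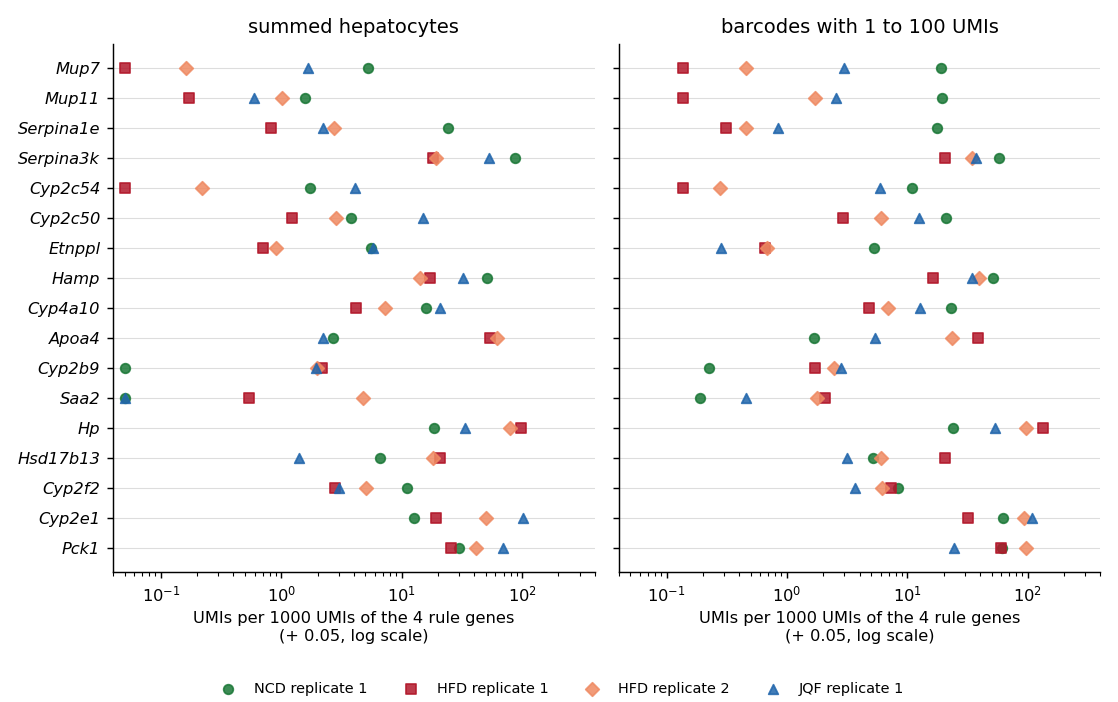
UMIs of 17 genes per 1000 UMIs of the 4 rule genes (+ 0.05, log scale) in the summed hepatocytes (left) and in barcodes with 1 to 100 UMIs (right), 1 point per library. The NCD point is the highest for Mup7, Serpina1e and Hamp in both panels, while for Cyp2f2 the points of NCD and HFD are close together on the right.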

How the data were processed

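Single-cell RNA sequencing was performed on 4 digested mouse livers with the 10x Genomics 3' v3.1 kit. The authors aligned reads to mm10 with Cell Ranger 6.0.1 and deposited UMI counts per gene and barcode, not normalized, once for all barcodes and once for those called as cells. File headers name other Cell Ranger versions, and the treatment of intronic reads is not known. Called barcodes held 69445244 to 109446496 UMIs per library.

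Here, hepatocytes were taken from the filtered matrices by the rule given above, and their UMI counts were summed per library. No doublet caller was run; the rule left out cells with a UMI of Ptprc or Epcam or more than 2 of Ptprb and Stab2, and cells with UMIs of other leukocyte or endothelial markers were kept. Group was the only term in edgeR 4.0.16 (quasi-likelihood fit, TMM scaling, filterByExpr), with Benjamini-Hochberg adjustment over all genes tested, and the 8 rule genes were left out of the calls. The SE of a log2 fold change was its size over the root of F. The script was tested on simulated data. DESeq2 1.42.0, other filters, scalings and subsets of cells were alternatives. Ratios for genes with 1 to 3 UMIs in a group carry exact 95% intervals, and all intervals cover counting error only.

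The members and the gene lists were chosen with earlier results of these data known. Genes were named if they were among the 12 largest changes in a direction, with adjusted p under 0.05, a mean of at least 50 CPM and both HFD libraries on the same side. Markers were named as well, and so were the 4 highest members of a list and members that passed the test with a mean of at least 50 CPM. Cidec and Slco1a1 had lower means and were named outside this rule. Some genes that met this rule are not reported here. Gene symbols were those of the files, coordinates those of GENCODE M21, and promoter windows those of RefSeq.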

Additional observations from a re-analysis of the deposited data

How the results depend on the processing

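No paired analysis was possible because the groups share only replicate number 1 and NCD and JQF have 1 library each. Genes called in HFD against NCD numbered 347, against 172 with library totals, 98 with at least 5% of UMIs from the 4 genes, 135 without the top 5% of cells by UMIs, 121 with libraries thinned to 82627 UMIs, 42 with DESeq2 and 0 with strict exclusion of 41 other-type markers, where 827 genes were tested. In JQF against HFD they numbered 64, against 13, 17, 3, 47, 9 and 0. Strict exclusion left 47 and 13 genes at an unadjusted p under 0.05. Chosen after seeing the data, cells under 1% mitochondrial UMIs gave 32 and 1 calls, cells thinned to 799 UMIs 13 and 2, Cyp2f2-higher cells 101 in HFD against NCD, and Cyp2e1-higher cells 62 there. Cells with at least 5% mitochondrial UMIs gave 148 in JQF against HFD (56 higher, 92 lower), and leaving out the biliary-rich cell 226 in HFD against NCD. Library totals moved the median log2 fold change of HFD against NCD from 0.06 to 0.23 and the higher share of calls from 44.4% to 53.5%. Without an HFD library no residual degree of freedom was left, so fold changes were values only. Of the 347 genes called in HFD against NCD, all 337 that had a value without HFD replicate 1 kept their direction. So did all 335 that had one without HFD replicate 2. By size, 18 and 14 of the fold changes given moved by more than their SE without replicates 1 and 2, and 10 and 8 in JQF against HFD. At least 10% of UMIs from the 4 genes left no cell in HFD replicate 2 and no fit.

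Among the genes given with a fold change (66 in HFD against NCD, 38 in JQF against HFD) signs turned for 9 values in each comparison, 4 of them fits with 0 JQF UMIs. Of all genes called, 27 of 259 turned in HFD against NCD in Cyp2e1-higher cells, and 12 of 60 in JQF against HFD at 5% of UMIs from the 4 genes. In HFD against NCD, Cyp2e1 went to -3.32 with strict exclusion, -0.091 without the top cells, -3.09 under 1% mitochondrial UMIs, -1.95 in thinned cells, -1.58 in Cyp2e1-higher cells, a split set by this gene, and between -0.41, without HFD replicate 2, and 0.70, without HFD replicate 1. Mup20 went to 0.018 in thinned cells and 0.81 in Cyp2e1-higher cells, where Apob went to 0.24. In JQF against HFD, Cyp3a11 went to 0.75 in thinned cells, Cyp2c50 to -0.11 with strict exclusion and -0.49 under 1% mitochondrial UMIs, where Serpina3k went to -0.045, and Spp1 to 0.88 without the biliary-rich cell. The cause was not tested. The fitted -5.75, -6.74 and -6.60 of Etnppl, Fasn and Insig1 at 5% of UMIs from the 4 genes, and the -5.66 of Etnppl at 5% mitochondrial UMIs, rest on 0 JQF UMIs where 0.617 to 1.16 would be expected at the HFD level, too few to show a fall.

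The share of hepatocytes in NCD was 0.469%, against 0.146% with at least 1000 genes, 0.166% with at least 2000 UMIs, and 0.167%, 0.0837% and 0.0669% under the 5%, 10% and strict rules. The latter 3 gave 0.123%, 0.0153% and 0.107% in HFD replicate 1, 0.0390%, 0% and 0.0877% in HFD replicate 2, and 0.0351%, 0.0117% and 0.0937% in JQF, where 1000 genes and 2000 UMIs gave 0.109% each. These 2 limits gave 0.195% and 0.192% in HFD replicate 1 and 0.228% and 0.239% in HFD replicate 2, both above NCD, so the order of NCD and HFD turned. A limit of 50% mitochondrial UMIs gave 0.538%, 0.301%, 0.356% and 0.311% in NCD, HFD replicates 1 and 2 and JQF, with JQF above HFD replicate 1, and a limit of 10% gave 0.346%, 0.130%, 0.263% and 0.182%.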
